A study of Mus musculus with 8 samples.

Results

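Hox genes encode homeodomain transcription factors that give cells their position along the body axis. In the mouse 39 of them lie in 4 clusters, HoxA to HoxD, and each cluster is read in 1 direction. The order of the genes along a cluster follows the order of their domains along the body, with paralog group 1 at the 3′ end acting towards the head and paralog group 13 at the 5′ end acting in the tail and the far limb. Genes with the same number in different clusters are paralogs and encode closely related proteins. Adult cells often keep a regional pattern of Hox activity, with stretches of active chromatin next to stretches held silent by Polycomb proteins. Acetylation of lysine 56 of histone H3 (H3K56ac) is a mark of promoters and enhancers that the deacetylase SIRT6 removes.

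To describe how H3K56ac is laid out along these clusters in muscle stem cells (MuSCs), the stem cells of skeletal muscle, all 39 protein-coding genes named Hoxa, Hoxb, Hoxc or Hoxd with a number were taken from the GENCODE annotation, among 21853 protein-coding genes in all. The H3K56ac chromatin immunoprecipitation and sequencing (ChIP-seq) libraries came from MuSCs freshly isolated from limb and trunk muscles of C57BL/6 mice and sorted by flow cytometry. The labels name 8 libraries in 4 groups of 2 replicates, H3K56ac and input for Control and for Sirt6mKO. The paper calls the MuSCs behind its H3K56ac peaks wild type, and elsewhere gives floxed Sirt6 without Cre as the control genotype. Sirt6mKO mice carry a floxed Sirt6 gene and a Pax7-ICNCre allele, so that SIRT6 is lost wherever Pax7 drives Cre in the muscle lineage. The mice were adult males per the study, the number of mice behind a library was not given in the sources used here, and muscles of several body regions were mixed in 1 preparation.

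The data are 1 list of 105600 merged peaks without genotype, replicate or height. Every value below therefore describes the union of the libraries that entered the merge, there is no error between replicates, the depth behind a peak is unknown from the list, and Control and Sirt6mKO were not compared. The paper describes more H3K56ac peaks in Sirt6mKO MuSCs, and broad ones after loss of Sirt6. Which genotype a wide block below comes from cannot be told from the merged list. A stretch without a peak is one where no enrichment was called, which depth can also limit. As a check of the labelled cells, 6 of 6 MuSC marker genes (Pax7, Myf5, Vcam1, Itga7, Calcr and Cdh15) had a peak over a transcription start site (TSS), which 61% of all protein-coding genes had. The same held for 0 of 4 immune, 2 of 4 endothelial, 3 of 4 fibro-adipogenic and 2 of 4 myofibre markers, so only the immune list was without a call. Ptprc and Pecam1, which encode antigens used to remove immune and endothelial cells in the sort, had 0 TSSs under a peak, although 40.0% of the Pecam1 coding span was covered, and the part of other cells in any Hox peak was not tested.

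The clusters fell into a pair covered over most of their length and a pair with scattered peaks. Peaks lay over 65.8% of HoxC and 55.8% of HoxA, and over 9.97% of HoxB and 9.33% of HoxD. HoxC spans chr15:102921103-103036852 on the plus strand and held 29 peaks. HoxA spans chr6:52155590-52260880 on the minus strand and held 21 peaks. HoxB, at chr11:96194316-96368256 on the plus strand, held 15 peaks in 173.941 kb, and HoxD, at chr2:74668310-74765142 on the plus strand, held 7 peaks in 96.833 kb. All positions are on GRCm38 (mm10), and a cluster runs from the first to the last base of its Hox genes.

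**Figure D1:**
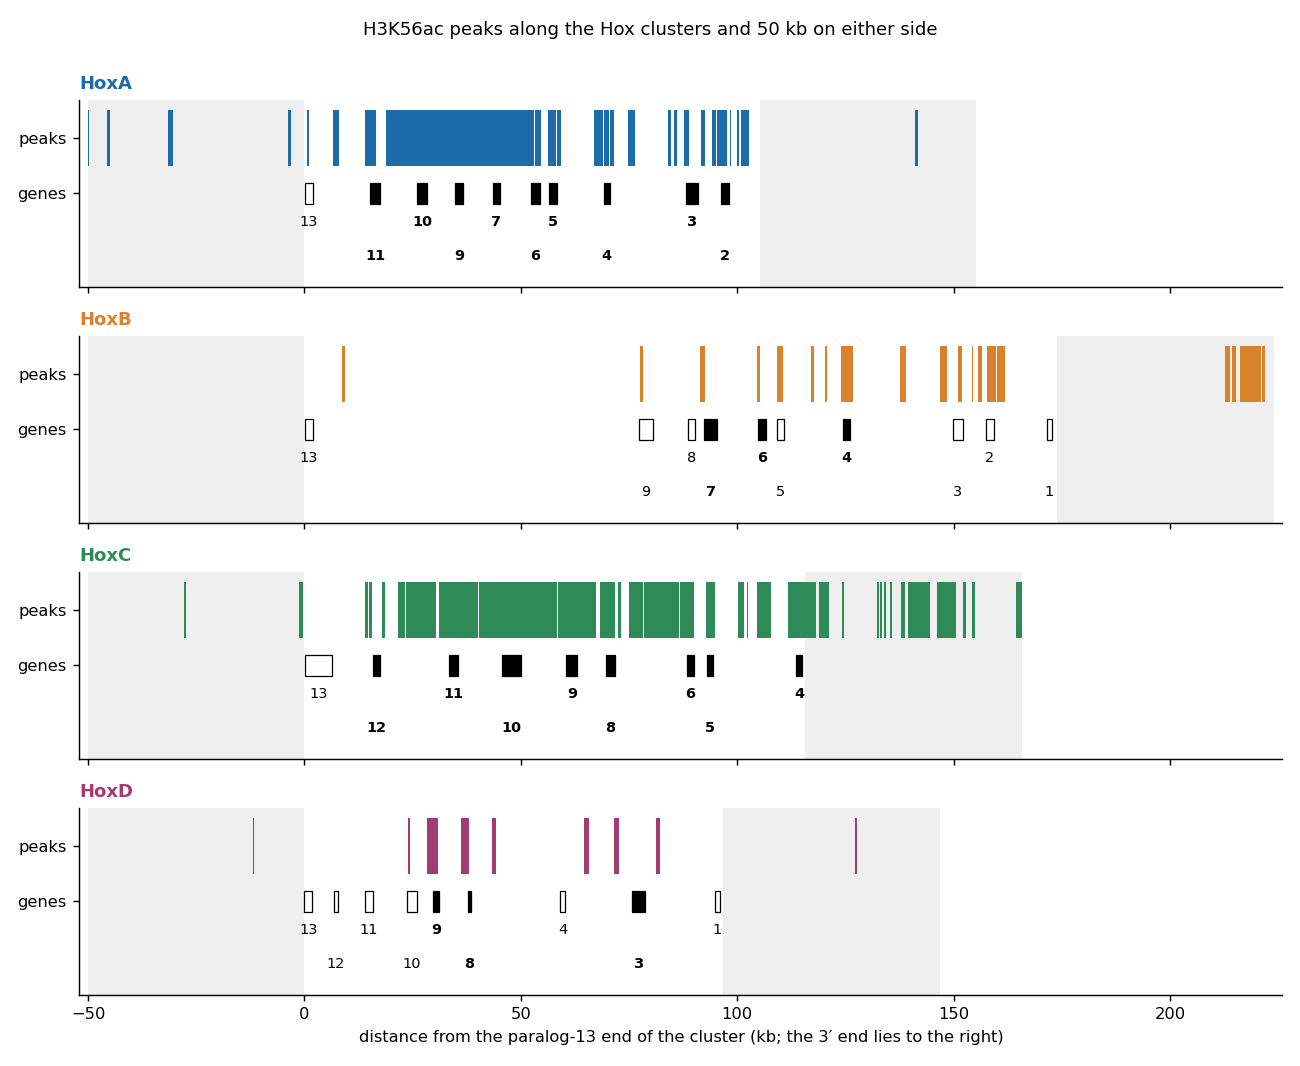
Merged H3K56ac peaks (coloured blocks) and coding spans of the Hox genes (boxes, with paralog numbers) against distance in kb from the paralog-13 end of each cluster. Filled boxes and bold numbers mark genes with a peak over a TSS, grey areas are the 50 kb on either side, and only genes reported here are drawn. HoxA and HoxC are filled with peaks through their centre, HoxB and HoxD hold scattered peaks, and the first 68.171 kb after the peak downstream of Hoxb13 hold none.

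For scale, peaks covered 6.95% of the genome outside assembly gaps, and the genome was cut into 26331 windows of 100 kb. The median window was 0.958% covered and 45.2% of windows held no peak. As much cover as in HoxC was met by 0.558% of windows, as much as in HoxA by 1.1%, as much as in HoxB by 23.4% and as much as in HoxD by 24.6%. HoxC and HoxA thus lay at the upper end of the windows, and HoxB and HoxD above the median window but well inside the spread. HoxA, HoxC and HoxD are close to a window in length, while HoxB is longer.

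**Figure D2:**
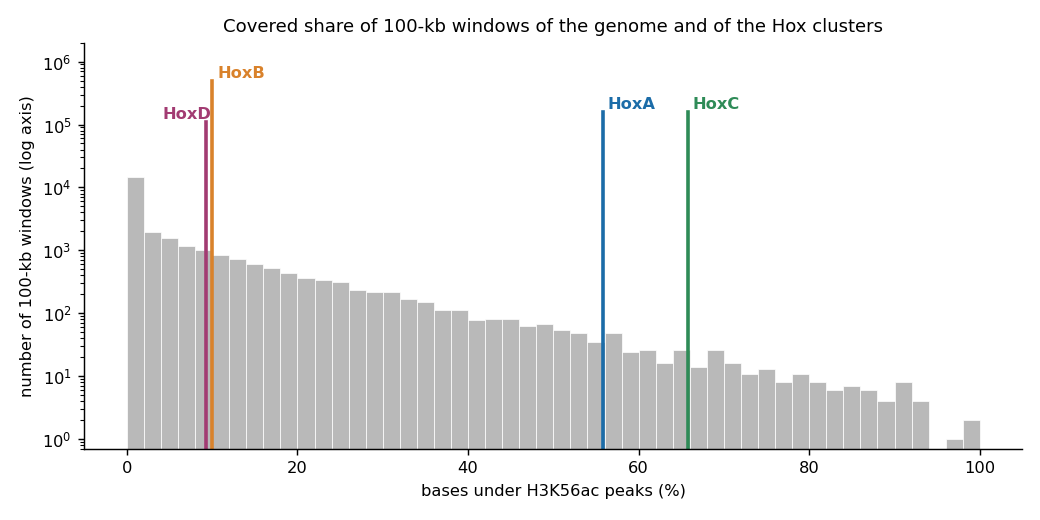
Histogram of the percentage of bases under H3K56ac peaks in 26331 windows of 100 kb (grey bars, log axis for the number of windows), with the covered share of each Hox cluster as a coloured line. HoxD at 9.33% and HoxB at 9.97% fall among many windows, and HoxA at 55.8% and HoxC at 65.8% in the sparse right tail.

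The cover in HoxA came largely from a single peak. It is 33097 bp wide, lies at chr6:52207788-52240884, and only 13 peaks of the whole list are as wide. It runs from within Hoxa6 through Hoxa7, Hoxa9 and the microRNA gene Mir196b to the distal start of Hoxa10, genes that pattern the trunk and the near part of the limb. Only 8 bases separate it from the next peak towards Hoxa11, and with peaks less than 1 kb apart joined the block is 35.867 kb long, a length that 241 joined blocks of the genome reach. All coding bases and introns of Hoxa7, Hoxa9 and Hoxa10 are under it, with 4 of 4, 2 of 2 and 2 of 2 TSSs. The distal TSS of Hoxa3 lies inside it too, so the call for Hoxa3 rests on a start site far upstream, and its own coding span was 20.7% covered.

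HoxC reached its higher share with many peaks side by side. Its widest peak was 10514 bp, at chr15:102961387-102971900 over the whole of Hoxc10, and 899 peaks of the list are as wide. Next to it lie peaks of 7637 bp over the TSSs of Hoxc9 and 7904 bp over its coding span, and a peak of 7280 bp lies between Hoxc8 and Hoxc6. Joined over gaps of less than 1 kb, 14 peaks made a block of 51.673 kb from upstream of Hoxc11 to past Hoxc8, and 86 such blocks in the genome are as long. With gaps of up to 5 kb allowed, a distance chosen after the values were seen, 24 peaks formed a run of 80.952 kb that holds Hoxc12 to Hoxc5 and was 83.1% covered.

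HoxB and HoxD had no such block. The widest HoxB peak was 2813 bp, at chr11:96318230-96321042 over Hoxb4, a gene known from blood stem cells, and 18172 peaks are as wide. The widest HoxD peak was 2562 bp, at chr2:74696575-74699136 over the start of Hoxd9, and 20588 peaks are as wide. The next in width were 2075 bp at Hoxb2 and 2001 bp at Hoxd8. In windows of 5 kb counted from the paralog-13 end, 20 of 34 in HoxB and 10 of 19 in HoxD held no peak, against 1 of 21 in HoxA and 3 of 23 in HoxC. At least 50% of the window was covered in 11 windows of HoxA, 15 of HoxC, 1 of HoxB and 0 of HoxD.

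Counted by gene, 24 of the 39 Hox genes had a peak over a TSS. That is 61.5%, beside 61% of all protein-coding genes, so as a family the Hox genes were marked at their starts as often as other genes. The clusters differed in this count as they did in cover, with 10 of 11 genes in HoxA, 8 of 9 in HoxC, 3 of 10 in HoxB and 3 of 9 in HoxD. A peak within 1 kb of a TSS was found at 31 Hox genes, or 79.5%, beside 64.5% of all protein-coding genes. By this wider call the counts were 11 in HoxA, 9 in HoxC, 7 in HoxB and 4 in HoxD.

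The body of the gene set the Hox genes, chiefly those of HoxA and HoxC, further apart from the background than the start did. The coding span, from the first to the last coding base with the intron included, was at least 50% covered in 19 of 39 Hox genes (48.7%) and in 10.5% of all protein-coding genes, and it was covered from end to end in 10 Hox genes and in 3.5% of all. Hox genes are compact, with coding spans of 716 to 6235 bp and a median of 1767 bp against 11598 bp for all genes, and a short span is more easily filled by a peak. Among the 6957 genes with a coding span in the Hox range, 19.3% were at least 50% covered and 7.01% were covered from end to end. By cluster, the 50% call was met by 8 of 11 genes in HoxA and 7 of 9 in HoxC. It was met by 3 of 10 in HoxB and 1 of 9 in HoxD. Genes under the same wide peak, such as Hoxa7, Hoxa9 and Hoxa10, are not independent of each other. The 10 Hox genes covered from end to end were Hoxa7, Hoxa9, Hoxa10, Hoxb4, Hoxc4, Hoxc6, Hoxc8, Hoxc9, Hoxc10 and Hoxc11. HoxC gave 6 of the 10, HoxA 3, HoxB 1 and HoxD 0.

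**Figure D3:**
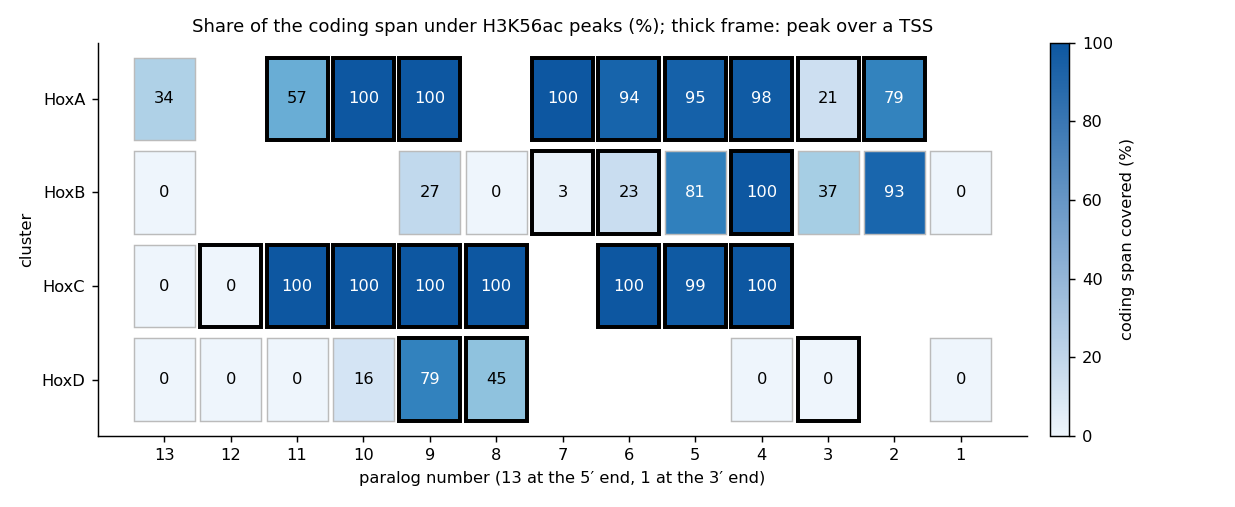
Percentage of the coding span under H3K56ac peaks for the Hox genes reported here, with paralog number across and cluster down. A thick frame marks a peak over a TSS, and an empty place is a paralog that the cluster does not have or that is not reported here. Full cover runs from paralog 10 to 7 in HoxA and, but for Hoxc5 at 98.6%, from 11 to 4 in HoxC, and every paralog-13 gene is pale.

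The paralog-13 genes, which specify the most posterior parts of the skeleton and the gut, stood at the 5′ end in all 4 clusters. Hoxa13, Hoxb13, Hoxc13 and Hoxd13 had 0 of 4 TSS calls, beside 61% of all protein-coding genes. Within 1 kb of a TSS, 2 of 4 had a peak, beside 64.5% of all protein-coding genes. Hoxa13 (ENSMUSG00000038203.18) had a peak of 637 bp that begins 482 bp downstream of its main TSS and covers 34.1% of its coding span. Hoxc13 (ENSMUSG00000001655.6) had a peak of 835 bp ending 348 bp upstream of its start, with 0% of the coding span covered. Hoxb13 (ENSMUSG00000049604.3) and Hoxd13 (ENSMUSG00000001819.4) had no peak nearer than 8722 and 11648 bp. Of the paralog-12 genes, Hoxc12 had a peak of 674 bp over its TSS with 0% of its coding span covered, and Hoxd12 was 17310 bp from the nearest peak, the farthest of all 39.

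From paralog 11 to 9, genes of the lower trunk and limb, the clusters parted. Hoxc11, Hoxc10 and Hoxc9 were 100% covered over the coding span and Hoxa10 and Hoxa9 likewise, while Hoxa11 was 57.0% covered under a peak of 2400 bp. Hoxd11 had no peak within 10000 bp of its TSS, Hoxd10 had a peak of 383 bp starting 399 bp downstream of its TSS that covered 16.1% of the coding span, and Hoxd9 was 79.3% covered. In HoxD the first peak from the 5′ end is thus the one in Hoxd10, after 24.013 kb without any. Hoxb9 had no peak over its 2 TSSs, and a peak of 897 bp starting 286 bp downstream of the main one covered 27.1% of its coding span.

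Promoter sequences are shown for a paralog pair with opposite calls, Hoxa10 and Hoxd10, and for 2 genes of paralog 13 without a call. Each runs 5′ to 3′ on the gene's strand from 250 bases before to 50 bases after a RefSeq start (GRCm38.p6), and capitals mark CpG dinucleotides, the sites of DNA methylation.
Hoxa10, chr6:52234890-52235189, minus strand, 100% under a peak: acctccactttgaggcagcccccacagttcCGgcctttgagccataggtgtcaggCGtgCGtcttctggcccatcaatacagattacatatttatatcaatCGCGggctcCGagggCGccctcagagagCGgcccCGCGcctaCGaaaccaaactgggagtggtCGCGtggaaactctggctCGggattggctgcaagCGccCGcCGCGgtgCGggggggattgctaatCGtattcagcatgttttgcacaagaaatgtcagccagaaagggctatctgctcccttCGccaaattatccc
Hoxd10, chr2:74691641-74691940, plus strand, 383 bp from a peak: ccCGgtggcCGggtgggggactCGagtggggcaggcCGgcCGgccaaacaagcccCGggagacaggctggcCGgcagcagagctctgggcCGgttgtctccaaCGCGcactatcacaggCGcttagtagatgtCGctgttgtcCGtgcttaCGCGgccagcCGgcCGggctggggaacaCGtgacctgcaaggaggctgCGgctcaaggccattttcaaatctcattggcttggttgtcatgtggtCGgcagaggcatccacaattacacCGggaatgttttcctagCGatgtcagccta
Hoxa13, chr6:52260831-52261130, minus strand, 433 bp from a peak: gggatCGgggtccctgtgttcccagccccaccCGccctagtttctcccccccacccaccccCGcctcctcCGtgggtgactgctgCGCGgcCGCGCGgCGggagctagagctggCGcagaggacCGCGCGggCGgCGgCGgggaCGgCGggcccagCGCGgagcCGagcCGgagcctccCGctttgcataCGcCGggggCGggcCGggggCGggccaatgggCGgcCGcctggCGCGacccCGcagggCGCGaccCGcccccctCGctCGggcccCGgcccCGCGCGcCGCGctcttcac
Hoxd13, chr2:74667975-74668274, plus strand, 11313 bp from a peak: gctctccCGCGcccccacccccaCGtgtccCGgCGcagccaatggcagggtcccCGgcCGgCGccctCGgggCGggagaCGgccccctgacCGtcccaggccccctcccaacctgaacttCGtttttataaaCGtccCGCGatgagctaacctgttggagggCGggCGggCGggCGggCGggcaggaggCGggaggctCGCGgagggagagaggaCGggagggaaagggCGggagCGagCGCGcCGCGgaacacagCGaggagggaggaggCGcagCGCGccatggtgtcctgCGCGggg
The number of CpGs was 21 in Hoxa10 and 22 in Hoxd10, so the pair with opposite calls was alike in this count. Hoxa13 with 45 and Hoxd13 with 37 had the most of the 24 Hox windows that the RefSeq table holds, which belong to 22 of the 39 genes.

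The 14 Hox promoter windows that overlapped a peak had a median of 14.5 CpGs with a range of 4 to 29, and the 10 without a peak had a median of 17.5 with a range of 4 to 45. Over all 32851 promoter windows of the table the median was 7. By their medians, these Hox windows were therefore richer in CpG than all windows, whether or not a peak lay on them. Single windows of both kinds fell below the median of 7. Of the HoxC genes only Hoxc4 was among the 24 Hox windows, with 9 CpGs. The TATA motif TATAAA, searched on both strands, was in 4 of the 24 Hox windows (16.7%) and in 13.6% of all windows. It was found at Hoxa10, Hoxb8, Hoxd4 and Hoxd13, of which only the Hoxa10 window was under a peak. The HOX and PBX motif TGATTNAT was in 2 windows (8.33%), Hoxa2 and Hoxd11, and in 3.22% of all windows. A match of letters is no evidence that a factor binds.

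By TSS calls the central genes, paralogs 4 to 8, were marked most often, with 12 of 15, beside 61% of all protein-coding genes. The anterior paralogs 1 to 3 had 4 of 8 and the posterior paralogs 9 to 13 had 8 of 16. Within 1 kb of a TSS the counts were 13 of 15, 6 of 8 and 12 of 16, beside 64.5% of all protein-coding genes. By bases covered from the first to the last coding base of a class, central genes led only in HoxA, with 65.4%. In HoxC they had 61.0% against 66.9% for the posterior genes, and in HoxD 6.06% against 9.47%. In HoxB they had 16.4% against 25.7% for the anterior genes. In HoxA and HoxC all 8 central genes had a peak over a TSS and at least 50% of the coding span covered. They include Hoxa4 at 97.8% and Hoxa6 at 93.5%, Hoxa5 at 94.9% and Hoxc5 at 98.6%, genes of the neck and chest, and Hoxc6 and Hoxc8 at 100%, genes of the chest. In HoxB, Hoxb4 was 100% covered, Hoxb5 80.5%, Hoxb6 23.5%, Hoxb7 2.97% and Hoxb8 0%. Among these central genes alone, the values ran from the highest at paralog 4 to the lowest at paralog 8. In HoxD, Hoxd8 was 45.3% and Hoxd4 0% covered.

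Paralog 6 and 7 were the groups in which all members had a TSS call, with 3 of 3 and 2 of 2. All protein-coding genes had one at 61%, so with so few members these counts do not set the groups apart. Among paralog 8 the missing gene was Hoxb8, 3079 bp from the nearest peak, among paralog 4 it was Hoxd4, 5871 bp away, and among paralog 9 Hoxb9. All 3 paralog-5 genes were over 80% covered in the coding span, although Hoxb5 had no TSS call because its peak of 1297 bp starts 30 bp downstream of the annotated start.

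The anterior genes, which act in the hindbrain and neck, were mixed, with cover ranging from 0% to 92.7%. Hoxb1 and Hoxd1, with no peak within 9562 and 12527 bp, were both 0% covered. Hoxa2 had a peak over its TSS and 79.0% of the coding span covered, and Hoxb2 had 92.7% covered by a peak of 2075 bp that starts 312 bp downstream of its TSS. Hoxb3 was 37.4% covered with the nearest peak 880 bp upstream of a TSS, and Hoxd3 was called from a distal TSS at position 74711927 with 0% of the coding span covered.

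Of the 15 Hox genes without a TSS call, 7 had a peak within 1 kb and 8 had none, and the distances of those 8 ran from 3079 to 17310 bp. No distance lay between 880 and 3079 bp, so a limit of 3 kb gave the same 31 genes as 1 kb. Both groups belong mostly to HoxB and HoxD. The 7 near misses were Hoxa13, Hoxb2, Hoxb3, Hoxb5, Hoxb9, Hoxc13 and Hoxd10, and for 5 of them, all but Hoxb3 and Hoxc13, the peak lay on the transcribed side. Over the 1 kb on each side of the main TSS, HoxB genes were on average 13.7% covered upstream and 39.8% downstream, HoxD genes 13.3% and 34.1%, HoxA genes 78.4% and 87.6%, and HoxC genes 78.1% and 78.3%. All protein-coding genes averaged 51.9% upstream and 56.3% downstream.

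The 50 kb on the 5′ side were sparsely covered at all 4 clusters, and only HoxC had a peak across its end, on the 3′ side. The 50 kb beyond Hoxc4 were 40.9% covered by 14 peaks, and a peak of 6452 bp crosses the end of the gene. The 50 kb beyond Hoxc13 were 2.64% covered by 2 peaks. HoxA had 4.90% covered beyond Hoxa13 and 1.13% on its 3′ side, where the next peak lies 35.874 kb from the cluster. HoxD had 0.66% covered beyond Hoxd13 and 1.16% beyond Hoxd1, and HoxB had 0% beyond Hoxb13 and 15.1% beyond Hoxb1. Those 15.1% come from 4 peaks that start 38.813 kb past the cluster, the widest of 4888 bp.

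Inside the clusters the 5′ ends were sparsely covered over different lengths. In HoxC the 14.005 kb from the start of Hoxc13 to upstream of Hoxc12 held no peak. In HoxA cover was 12.7% in the first 5 kb and 100% in the 6 windows from 20 to 50 kb, which begin at the distal start of Hoxa10. In HoxB the longest stretch without a peak of any cluster, 68.171 kb at chr11:96203572-96271742, separates a 534-bp peak 8722 bp past the start of Hoxb13 from the first peak in Hoxb9. It holds Mir196a-1 and the start of Hoxb9.

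The nearest protein-coding genes outside were also read. Evx1, a homeobox gene next to HoxA, had 2 of 2 TSSs under a peak at 52.618 kb from the cluster, whereas Evx2, its relative 8.753 kb from HoxD, had 0 of 2. Beyond the 3′ ends, Skap2 had 2 of 3, Smug1 2 of 4, Mtx2 1 of 1 and Skap1 0 of 5 TSSs under a peak. Ttll6 beside Hoxb13 had 0 of 2 and Calcoco1 beyond Hoxc13 2 of 4.

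**Figure D4:**
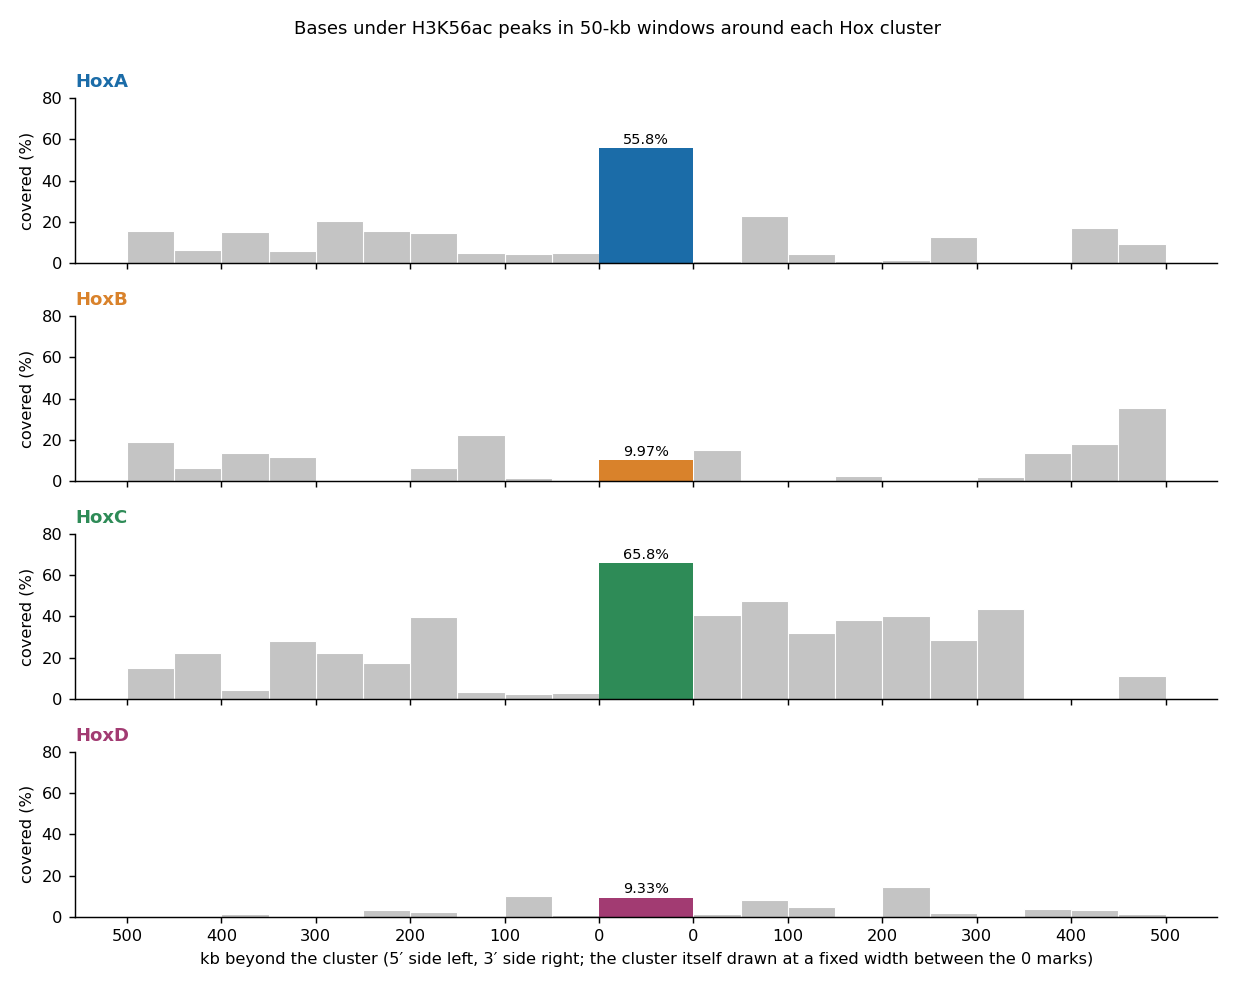
Percentage of bases under H3K56ac peaks in windows of 50 kb out to 500 kb on either side of each cluster (grey bars) and in the cluster itself (coloured bar, drawn at a fixed width). The 3′ side of HoxC stays between 28.4% and 47.6% for 7 windows, HoxA stands above all its windows, and the HoxD surroundings do not exceed 14.3%.

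Out to 500 kb, the 3′ side of HoxC was 28.2% covered and its 5′ side 15.8%. The 7 windows of 50 kb next to Hoxc4 ranged from 28.4% to 47.6%, and the next 2 held no peak. These windows hold the starts of Smug1, Cbx5, Hnrnpa1 and Itga5 among others, so the marked stretch reached well past the Hox genes. HoxA at 55.8% was above every one of its 20 neighbouring windows, of which the highest was 22.6%. HoxB at 9.97% was within the range of its neighbours, from 0% to 35.3%, and so was HoxD at 9.33%, from 0% to 14.3%.

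The microRNA genes of the clusters share seeds across clusters, which makes them a second set of paralogs to compare. Their mature sequences are given from RefSeq (GRCm38.p6), 5′ to 3′, with the seed, bases 2 to 8, in capitals.
mmu-miR-196a-5p, from Mir196a-1 in HoxB and Mir196a-2 in HoxC: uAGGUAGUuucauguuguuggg
mmu-miR-196b-5p, from Mir196b in HoxA: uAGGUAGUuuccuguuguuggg
mmu-miR-10a-5p, from Mir10a in HoxB: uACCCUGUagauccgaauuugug
mmu-miR-10b-5p, from Mir10b in HoxD: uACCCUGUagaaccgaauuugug
The miR-196 genes, whose products target Hox mRNAs, share the seed AGGUAGU, and Mir196b and Mir196a-2 lay wholly under the 33097-bp and 7637-bp peaks while Mir196a-1 was 6478 bp from a peak. The miR-10 genes share the seed ACCCUGU and lie near paralog 4, and both were outside peaks, Mir10a by 956 bp and Mir10b by 6808 bp. Mir615, within the Hoxc5 gene, had 79 of its 92 bases covered. Genes with the same miR-196 seed thus differed in their calls between clusters.

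Long non-coding genes were covered in all 4 clusters. The highest share was that of Hotair, the only such gene read in HoxC. A share over all long non-coding genes is not given here. Hotair, between Hoxc12 and Hoxc11 and known for a repressive role at Hox genes, was 93.3% covered with its TSS under a peak. In HoxA, Hoxaas3 was 47.5%, Hoxaas2 46.7%, Hotairm1 46.0% and Hoxa11os 44.1% covered, each with at least 1 TSS under a peak. Hottip, which lies beyond Hoxa13 and is known to activate 5′ HoxA genes, was 11.0% covered with 0 of 2 TSSs under a peak. In HoxB and HoxD, Hoxb3os was 37.7% covered with 1 of 2 TSSs under a peak, Hoxd3os1 23.6% with 2 of 4 and Hoxb5os 11.9% with 0 of 2. All of these but Hotair and Hottip overlap Hox genes, and since a peak has no strand, their cover cannot be told apart from that of the Hox genes.

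Base composition was read beside the calls. GC content of whole clusters ran only from 48.9% to 50.0%, so it did not separate the covered pair. CpGs numbered 29.9 per kb in HoxA, 28.0 in HoxD, 21.5 in HoxC and 20.9 in HoxB, again without following cover. Inside each cluster CpGs were denser under peaks than outside, with 69.0 against 23.8 per kb in HoxD, 47.8 against 17.9 in HoxB, 37.9 against 19.7 in HoxA and 24.4 against 15.8 in HoxC. The scattered peaks of HoxD and HoxB thus sat on CpG-rich spots of their clusters. Peaks made up 65.8% of HoxC, so their density was bound to lie nearer the average of that cluster. The size of this difference therefore cannot be compared between clusters. Repeats, from which reads with a single alignment are harder to obtain, made up 24.6% of HoxB and 13.4% to 15.9% of the other clusters, and their part in the lower cover of HoxB was not tested.

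Genes that act with or on the Hox genes were looked up from lists. All 9 genes for HOX cofactors, the Pbx, Meis and Pknox genes whose proteins bind DNA together with HOX proteins, had a peak over a TSS, beside 61% of all protein-coding genes, but 0 of 9 had 50% of the coding span covered, beside 10.5%. The widest of these peaks were 8812 bp at Pknox2, 8406 bp at Pknox1 and 8323 bp at Meis1. All 12 regulators of Hox chromatin, among them Kmt2a and Men1 of the activating complex and Ezh1, Ezh2, Eed and Suz12 of Polycomb, had a TSS call as well. Of 19 related homeobox genes outside the clusters, 4 had one (21.1%), namely Evx1, Gsx1, En1 and En2. En1 was the exception in width, with its 100% covered coding span under a peak of 8017 bp, while Pdx1, Cdx1, Cdx2, Cdx4, Gsx2, Mnx1, Dlx5 and Dlx6 were 0% covered with the nearest peak at least 6471 bp away.

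**Figure D5:**
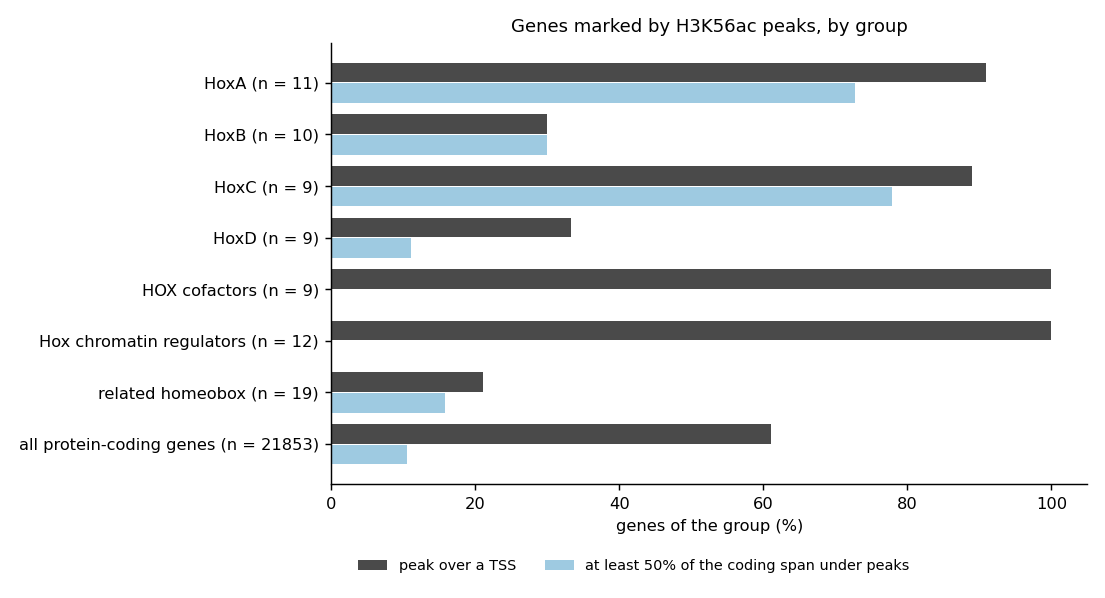
Percentage of genes with a peak over a TSS (dark bars) and with at least 50% of the coding span under peaks (light bars) in the Hox clusters, in the lists of HOX cofactors, regulators of Hox chromatin and related homeobox genes, and in all protein-coding genes, with the number of genes in each group. Cofactors and regulators have TSS peaks at 100% and covered spans at 0%, whereas in HoxA and HoxC both bars are long.

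Gene models limit some of these calls. The coding model Gm28308 overlaps 5 Hox genes in HoxA and Gm28230 overlaps 2 in HoxD, and Hoxa3, Hoxd3 and Hoxd4 have start sites far apart, so a TSS call near them may belong to a neighbour. With 1 start per gene, the outermost, the counts were 10 in HoxA, 3 in HoxB, 7 in HoxC and 4 in HoxD. In HoxB this call gained Hoxb2 and lost Hoxb6. The outermost start of Hoxb2, not one of a protein-coding transcript, lies under a peak of 869 bp.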

How the data were processed

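Reads had been assessed with FastQC, trimmed with Trim Galore, aligned to mm10 with bowtie under a single-alignment requirement and freed of duplicates with Picard. Peaks had been called with MACS2, cleared of blacklisted regions and merged with GenomicRanges, per the study's methods. The deposited list holds chromosome, start and end, and its score column, set by the authors, was 0 in every row and was not used. Which libraries entered the merge was not given in the sources used here. Merging can widen and fuse peaks.

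Positions were compared with GENCODE vM21 on GRCm38, counting from 1, with Python 3.11.15 and numpy 2.4.6. A call over a TSS needed 1 bp of overlap with the TSS of any protein-coding transcript. The main transcript gave the coding span. Windows of 100 kb with more than 10% N were left out. No test was run, because the list has 0 columns of values per sample. The functions were tested on simulated intervals. The Hox genes, of which 1 is counted but not reported singly here, the genes at borders, under the widest peaks or without a TSS call, the neighbours, non-coding genes and lists were named by rule. The sides of the TSS, the length range of coding spans and runs over gaps of 5 kb were added after values were seen. The members and lists were chosen with earlier results of these data known. Promoter and microRNA sequences are from RefSeq.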

Additional observations from a re-analysis of the deposited data

How the results depend on the processing

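For 17 results, 66 alternative values were computed, and 52 stayed within 1.5 times the main value. The covered shares of the 4 clusters did so under each alternative, which were peaks of at least 500 bp, joining over less than 1 kb and limits set at the outermost TSSs. The HoxB gene count rose from 3 to 7 with a peak within 1 kb or 3 kb in place of a peak over a TSS, and the HoxD count fell from 3 to 1 with 50% of the coding span, an alternative added after seeing the data. The flanks depended most on their length. With 20 kb in place of 50 kb the shares beyond Hoxa13, Hoxc13 and Hoxd13 were 2.65%, 4.18% and 1.65%, and those on the 3′ side of HoxA, HoxB and HoxD were 0%. With 100 kb they rose to 11.9% on the 3′ side of HoxA, 0.823% beyond Hoxb13, 5.36% beyond Hoxd13 and 4.64% beyond Hoxd1, since those windows hold other peaks. Beyond Hoxb1 the share fell to 7.54%, since the added 50 kb held no peak. No paired analysis was possible because replicates are not kept apart in the peak list, and none could be left out. The study gives read numbers for each library, but the depth behind a merged peak is unknown from the list. Depth limits what an uncovered stretch can show.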

Other observations

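Wide peaks also lay at genes outside the clusters. The MuSC marker genes Myf5, Calcr, Pax7 and Vcam1 had TSS peaks of 30239, 25343, 21301 and 12012 bp, and the coding span of Myf5, a regulator of muscle identity, was 100% covered, that of Vcam1 90.6% and that of Pax7 90.1%. For the other MuSC markers, Itga7 and Cdh15, the widest TSS peaks were 8977 and 599 bp. The coding spans of Calcr, Itga7 and Cdh15 were 34.9%, 30.2% and 42.2% covered. Tek, an endothelial marker, had a TSS peak of 12975 bp, so such width was not particular to MuSC markers. The 33097-bp peak from Hoxa6 to Hoxa10 was wider than each of these.

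Among the Dlx genes, homeobox genes of the limb and skull, Dlx2 was 69.7% and Dlx1 49.7% covered over the coding span without a TSS call, their nearest peaks being 65 and 835 bp from a TSS, and Dlx4 missed a call by 1 bp. Dlx5 and Dlx6 were 0% covered. The farthest related homeobox gene was Cdx2, a regulator of Hox genes in the embryo, at 93957 bp from the nearest peak.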
